A study of Mus musculus with 6 samples.

Results

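Skeletal muscle holds a set of enzymes that keep ATP available during contraction, and 9 of their genes were followed here, of the 20632 genes in the deposited table. They were chosen for their function and found by symbol, with earlier results of these data known, as creatine kinases (*Ckm*, *Ckmt2*, *Ckb*), creatine supply genes (*Slc6a8*, *Gatm*), adenylate kinases (*Ak1*, *Ak3*) and AMP deaminases (*Ampd1*, *Ampd3*). RNA came from whole hind limb muscles of unexercised C57BL/6 mice (C57BL/6J in the study's methods) aged 3 months, with 1 library per mouse. The 3 Baf155WT mice carried floxed *Baf155* alleles without Cre (Baf155 f/f, labelled wild type), and the 3 Baf155ΔMF mice carried the same floxed alleles with an *MCK*-Cre transgene (labelled Baf155 -/-), so the floxed alleles were common to both genotypes and the transgene was present in one of them. *MCK* is the older name of *Ckm*, and its regulatory sequence drives Cre in skeletal myofibers and also in heart muscle, so other cell types of the muscle keep the floxed gene intact. The RNA is that of every cell in the muscles.

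In myofibers, creatine kinases move phosphate between phosphocreatine and ADP, adenylate kinases turn a pair of ADP molecules into ATP and AMP, and AMP deaminases convert AMP to IMP and so pull the adenylate kinase reaction forward. The cytosolic muscle creatine kinase sits partly at the M-band of the sarcomere, the mitochondrial form lies between the mitochondrial membranes, and muscle imports most of its creatine from the blood. These reactions buffer ATP in the first moments of contraction and are a classical feature of fast muscle.

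*Smarcc1*, which encodes Baf155, was read in every mouse as the check of the labels. It had 23.4, 19.5 and 17.0 CPM (counts relative to library size, with TMM scaling) in the Baf155WT mice MS13-3, MS15-2 and MS15-3, and 7.05, 6.54 and 7.72 CPM in the Baf155ΔMF mice MS13-1, MS13-2 and MS14-2. All 3 Baf155ΔMF mice lay below all Baf155WT mice, at a log2 fold change of -1.49 with an edgeR adjusted p of 0.00907. The totals ran from 8426022 to 12469335 counts per library, and 3 counts, the floor used here for counting error, corresponded to 0.230 to 0.351 CPM. Fast fiber markers summed to between 120374 and 133140 CPM in the 6 libraries, so the label of skeletal muscle had its defining transcripts in each. The titles begin with MS13, MS14 or MS15, whose meaning the labels do not give. MS13 held 1 Baf155WT mouse (MS13-3) and 2 Baf155ΔMF mice, while MS15 held Baf155WT mice only and MS14 a Baf155ΔMF mouse only, so these other mice differ in prefix wherever they differ in genotype, and the effects cannot be told apart in them. The library of MS13-3 stood apart from the other Baf155WT libraries in several of the values below, and the counts of calls among the 9 genes are given with and without it.

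The stretches of genome just upstream of the RefSeq starts of the creatine kinase genes are shown because the regulatory sequence of *Ckm* drives the Cre of this model, and because the 3 kinases differ so widely in level. They come from RefSeq on GRCm38.p6 (the submitters' processing notes name GRCm38 without a patch release) and run 5′ to 3′ on the strand of the gene. Capitals mark E-boxes (CANNTG, the site of MyoD-type factors) and the TATA box (TATAAA). *Ckm* is on the plus strand at chr7:19410844-19411024, and the stretch stops 69 bases before the RefSeq start because a protein-coding GENCODE transcript begins after it. A noncoding GENCODE transcript of *Ckm* begins farther upstream, at 19404776, so the stretch lies inside the gene as GENCODE draws it. *Ckmt2* is on the minus strand at chr13:91876886-91877135 and *Ckb* on the minus strand at chr12:111672339-111672588, and both stretches end at the start.

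Ckm: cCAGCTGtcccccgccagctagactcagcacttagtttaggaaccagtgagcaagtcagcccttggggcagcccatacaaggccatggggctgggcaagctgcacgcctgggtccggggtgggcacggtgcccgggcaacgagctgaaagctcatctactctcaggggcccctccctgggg
Ckmt2: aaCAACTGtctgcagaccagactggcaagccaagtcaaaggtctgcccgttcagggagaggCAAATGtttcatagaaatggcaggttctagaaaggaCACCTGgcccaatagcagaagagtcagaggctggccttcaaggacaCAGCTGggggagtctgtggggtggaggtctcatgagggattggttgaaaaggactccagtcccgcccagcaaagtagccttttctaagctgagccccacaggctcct
Ckb: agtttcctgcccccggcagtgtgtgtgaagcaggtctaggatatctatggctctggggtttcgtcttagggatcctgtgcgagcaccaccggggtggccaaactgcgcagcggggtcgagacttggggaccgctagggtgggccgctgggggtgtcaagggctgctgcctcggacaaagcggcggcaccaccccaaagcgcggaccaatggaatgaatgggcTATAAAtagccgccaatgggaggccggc

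The *Ckmt2* stretch held 4 E-boxes, that of *Ckm* held 1 and that of *Ckb* held none, while *Ckb* alone of these stretches held a TATA box, 28 bases before its start, letters that 13.6% of all promoter windows hold. The GC content was 65.2% for *Ckm*, 54% for *Ckmt2* and 62.8% for *Ckb*, and the stretches held 6, 2 and 16 CpG dinucleotides. Promoter windows of 300 bases, from 250 before to 50 after the start, were listed for 7 of the 9 genes (12 windows, since *Ak1* and *Ampd3* have several starts), and *Slc6a8* and *Ampd1* were not matched. An E-box on either strand was present in 10 of the 12 windows, where 72.3% of all 32851 windows of this length hold one. The core letters of a hypoxia response element were searched on both strands as ACGTG and GCGTG, since HIF-1α is a subject of the study. They were found in 3 and 5 of the 12 windows, against 19.6% and 32.4% of all windows, and at *Ampd3* the ACGTG letters lie within an E-box. A STAT site (TTCNNNGAA) was found in 1 window, that of *Ckmt2*, against 8.3% of all windows. These matches are letters in a window, and binding was not measured in the data used here.

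Levels were compared between genes as CPM per kilobase of the principal GENCODE M21 transcript. *Ckm* stood first with 8456 ± 782 CPM per kilobase in Baf155WT and 7344 ± 247 in Baf155ΔMF muscle (SD, n = 3 mice per genotype). *Ckmt2* followed at 989 ± 142 and 1109 ± 57.0, and the mean of *Ckm* over all mice was 7.53 times that of *Ckmt2*. *Ak1* had 606 ± 40.6 and 578 ± 44.4 CPM per kilobase, and *Ampd1* had 541 ± 48.8 and 477 ± 50.2. The ranges of *Ak1* and *Ampd1* over the 6 mice overlapped, so their order is not set. Below a gap of 16.5 times came *Slc6a8* (24.6 to 33.5 over the 6 mice) and *Ak3* (25.1 to 27.4), whose ranges also overlapped and whose order turned when the length of all exons was used. *Ckb* had 6.48 ± 1.93 and 4.51 ± 0.667 CPM per kilobase, *Ampd3* had 2.85 ± 0.353 and 2.92 ± 0.348, and *Gatm* was last with 2.02 ± 0.364 and 1.85 ± 0.424. In both genotypes and every mouse the muscle forms *Ckm*, *Ak1* and *Ampd1* stood far above *Ckb*, *Ak3* and *Ampd3*, as the plot of levels per length shows.

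**Figure D1:**
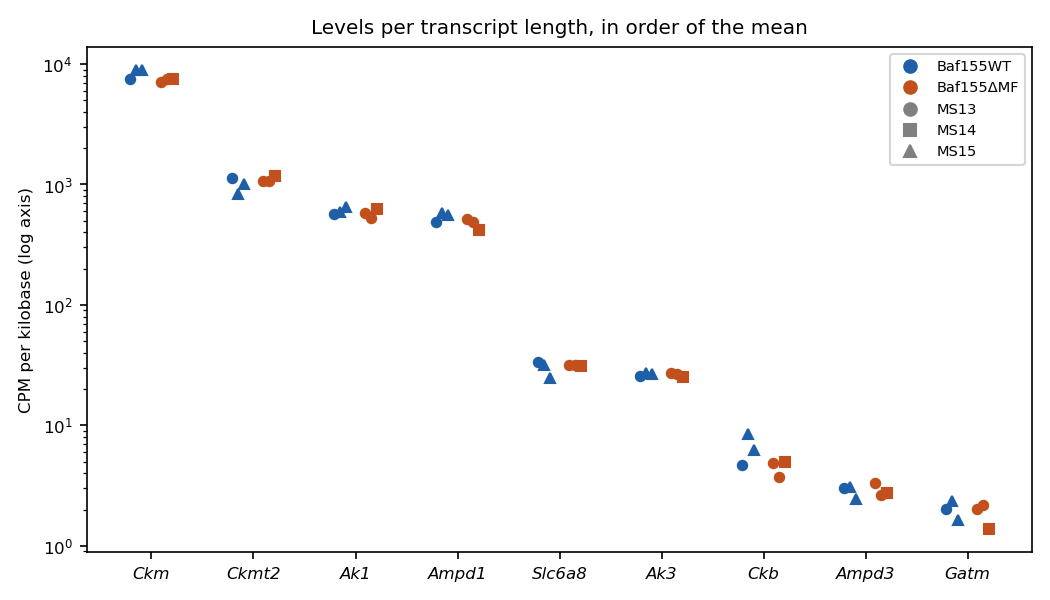
Level of each gene in each mouse as TMM-normalized CPM per kilobase of the principal transcript, on a log axis, with blue points for Baf155WT and orange points for Baf155ΔMF mice and the marker shape giving the title prefix. *Ckm* lies between 7060 and 8922 in all 6 mice and *Gatm* between 1.37 and 2.37, and the points of the genotypes lie close together within each gene.

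The comparison between genotypes asked whether energy buffer transcripts differ at rest between Baf155ΔMF and Baf155WT muscle. None of the 9 genes had an adjusted p under 0.05 in edgeR's quasi-likelihood test, where 3 of the 12116 genes tested (0.0248%) did, and none did with DESeq2 or limma-voom. At an unadjusted p under 0.05 there was 1 of the 9 genes, *Ckb*, against 7.95% of all genes tested, and the same number was found with DESeq2 and with limma-voom. All 9 genes passed the filter on low counts. Their log2 fold changes (Baf155ΔMF relative to Baf155WT) ran from -0.54 to 0.16 with a median of -0.07, beside a median of 0.00 over all genes tested, and 6 were negative. After TMM scaling, the mice of the genotypes did not overlap in 1 of the 9 genes, *Ckm*, which was lower in Baf155ΔMF muscle. In that direction, with the same scaling, this held for 5.57% of all genes tested. None of the 9 was higher without overlap, against 5.20% of all genes. In whole muscle, fewer cells of a type and less RNA per cell cannot be told apart in any of these values.

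**Figure D2:**
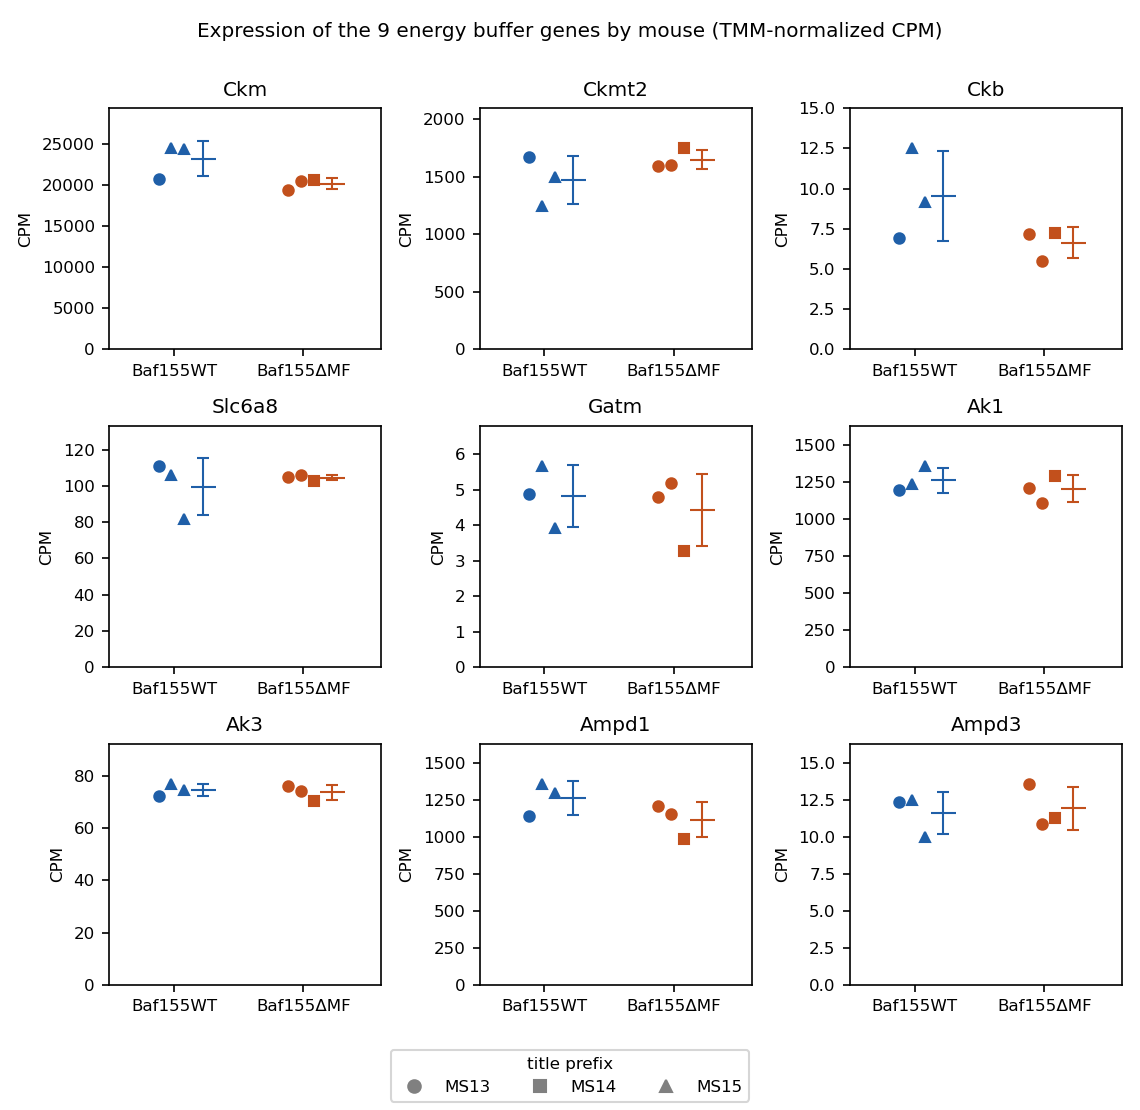
TMM-normalized CPM of the 9 genes in each mouse, with axes that start at 0, a point per mouse whose shape gives the title prefix, and a bar for the mean ± SD of 3 mice. The genotypes overlap in every gene except *Ckm*, and in *Ckm*, *Ckb* and *Ampd1* the MS13 Baf155WT mouse (blue circle) lies below both MS15 mice.

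*Ckm* (chromosome 7, 19404776 to 19422841, plus strand) encodes the cytosolic creatine kinase of muscle. Its level was 20712, 24465 and 24380 CPM in the Baf155WT mice (in the order MS13-3, MS15-2, MS15-3) and 19359, 20460 and 20590 CPM in the Baf155ΔMF mice (in the order MS13-1, MS13-2, MS14-2). The MS15 mice were high, and MS13-3 lay just above the highest Baf155ΔMF mouse. The means were 23186 ± 2143 and 20136 ± 676 CPM, which is -0.20 ± 0.13 on the log2 scale (estimate ± standard error) with an edgeR adjusted p of 0.668, and the 95% interval of the fold change ran from 0.713 to 1.06. Reads of *Ckm* were 2.01, 2.56 and 2.55% of all counts in the Baf155WT mice and 1.85, 1.97 and 2.09% in the Baf155ΔMF mice. In this share, taken without TMM scaling, the genotypes overlapped, with MS14-2 above MS13-3. Its exons overlap those of an antisense gene, *A930016O22Rik*, and while the library kit was stranded, the sources used here do not give whether counting used strand.

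*Ckmt2* (chromosome 13, 91853387 to 91876885, minus strand) encodes the sarcomeric mitochondrial creatine kinase, which meets newly made ATP at the inner membrane. It had 1667, 1247 and 1496 CPM in the Baf155WT mice and 1595, 1603 and 1745 CPM in the Baf155ΔMF mice. Here the MS15 mice were low, and MS13-3 lay within the range of the Baf155ΔMF mice. On the log2 scale Baf155ΔMF muscle differed by 0.16 ± 0.12 (edgeR adjusted p = 0.699), with a 95% interval of the fold change from 0.931 to 1.35. An antisense gene, *1700119I11Rik*, overlaps its exons as well.

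*Ckb* (chromosome 12, 111669361 to 111672338, minus strand) encodes the brain-type cytosolic creatine kinase, which many tissues other than adult muscle use. The counts were small, with 71, 164 and 103 in the Baf155WT mice and 67, 53 and 62 in the Baf155ΔMF mice. After scaling these were 6.90, 12.5 and 9.19 CPM against 7.15, 5.50 and 7.25 CPM. The MS15 mice lay above all others, while MS13-3 lay within the range of the Baf155ΔMF mice. The means were 9.55 ± 2.84 and 6.64 ± 0.982 CPM, or -0.54 ± 0.22 on the log2 scale (edgeR unadjusted p = 0.0310, adjusted p = 0.601), and the 95% interval of the fold change ran from 0.493 to 0.960.

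Of the creatine supply genes, *Slc6a8* (chromosome X, 73673150 to 73682502, plus strand) encodes the transporter that brings creatine into the fiber. It had 111, 106 and 81.7 CPM in the Baf155WT mice and 105, 106 and 103 CPM in the Baf155ΔMF mice, so the Baf155ΔMF values fell within the spread of the Baf155WT mice. The difference was 0.07 ± 0.11 on the log2 scale (edgeR adjusted p = 0.860), with a 95% interval of the fold change from 0.885 to 1.25. *Gatm* (chromosome 2, 122594467 to 122611303, minus strand) encodes the amidinotransferase that starts creatine synthesis, a step best known in kidney. It was read at 50, 74 and 44 counts in the Baf155WT mice and 45, 50 and 28 counts in the Baf155ΔMF mice, or 4.86, 5.66 and 3.93 CPM against 4.80, 5.19 and 3.27 CPM. The mice of both genotypes were intermixed, and the interval was wide at this depth, with a fold change of 0.920 and a 95% interval from 0.656 to 1.29 (adjusted p = 0.886 from edgeR).

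*Ak1* (chromosome 2, 32621758 to 32635058, plus strand), the cytosolic adenylate kinase of muscle, had 1196, 1235 and 1358 CPM in the Baf155WT mice and 1211, 1109 and 1294 CPM in the Baf155ΔMF mice. The genotypes overlapped, with a fold change of 0.953 and a 95% interval from 0.812 to 1.12 (adjusted p = 0.860 from edgeR). *Ak3* (chromosome 19, 29020833 to 29047961, minus strand) encodes the adenylate kinase of the mitochondrial matrix, which uses GTP. It had 72.4, 77.0 and 74.8 CPM against 76.2, 74.4 and 70.4 CPM. This was the narrowest interval of the 9 genes, with a fold change of 0.986 and a 95% interval from 0.868 to 1.12 (adjusted p = 0.950 from edgeR). The estimates of *Ak3* had a fractional part in all 6 mice, and its exons overlap *Cdc37l1* and *1700018L02Rik* on the opposite strand.

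*Ampd1* (chromosome 3, 103074014 to 103099720, plus strand), the AMP deaminase of skeletal muscle, had 1141, 1362 and 1300 CPM in the Baf155WT mice and 1214, 1154 and 987 CPM in the Baf155ΔMF mice. The MS15 mice were again the highest, MS14-2 was the lowest, and MS13-3 lay below both MS13 Baf155ΔMF mice. Baf155ΔMF muscle differed by -0.18 ± 0.12 on the log2 scale (edgeR adjusted p = 0.670), with a 95% interval of the fold change from 0.739 to 1.05. *Ampd3* (chromosome 7, 110768206 to 110812405, plus strand), the form best known from red blood cells, had 12.4, 12.5 and 9.99 CPM against 13.6, 10.9 and 11.3 CPM. Its genotypes were intermixed, with a fold change of 1.02 and a 95% interval from 0.824 to 1.27 (adjusted p = 0.953 from edgeR). Its estimates also had a fractional part in all 6 mice, and *Rnf141* overlaps its exons on the opposite strand. Erythroid markers (5 of 7 listed genes tested) summed to 777, 1227 and 622 CPM against 371, 504 and 805 CPM, an order that *Ampd3* did not have beyond its high value in MS15-2. All 5 markers had a lower mean in Baf155ΔMF muscle. An unadjusted p under 0.05 from edgeR was found in 3, beside 7.95% of all genes tested, and an adjusted p under 0.05 in 0. The log2 ratios of these 5 markers between the MS13 mice alone (1 Baf155WT and 2 Baf155ΔMF) ran from -0.90 (*Hba-a1*) to -0.74 (*Alas2*).

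Between the MS13 mice alone (1 Baf155WT and 2 Baf155ΔMF), the log2 ratios of the means of the 9 genes lay between -0.12 (*Ckb*) and 0.06 (*Ak3*). *Ckm* and *Ckmt2* both stood at -0.06 there, and *Ampd1* at 0.05. A fit with the prefix as a covariate draws the genotype difference from the same 3 mice, and its unadjusted p from edgeR was 0.641 for *Ckb*, 0.661 for *Ckm* and 0.622 for *Ampd1*. *Smarcc1* had a log2 fold change of -1.79 between the same mice and of -1.49 over all mice. Without MS13-3, *Ckb* had an adjusted p of 0.0255 from edgeR at a log2 fold change of -0.72, in a fit in which 7.77% of the 12288 genes tested were called. Without MS15-2 the log2 fold change of *Ckb* was -0.28 (unadjusted p = 0.189 from edgeR) and without MS13-2 it was -0.42 (unadjusted p = 0.123 from edgeR), so either omission ended the unadjusted call. At an unadjusted p under 0.05 the fit without MS13-3 had 4 of the 9 genes, against 23.8% of the genes tested. They were *Ckb*, *Ckm* (log2 fold change -0.28, adjusted p = 0.157), *Ckmt2* (0.27, adjusted p = 0.147) and *Ampd1* (-0.25, adjusted p = 0.168). All Baf155WT mice left in that fit carry MS15, so what belongs to the prefix and what to the genotype cannot be told apart in these values.

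**Figure D3:**
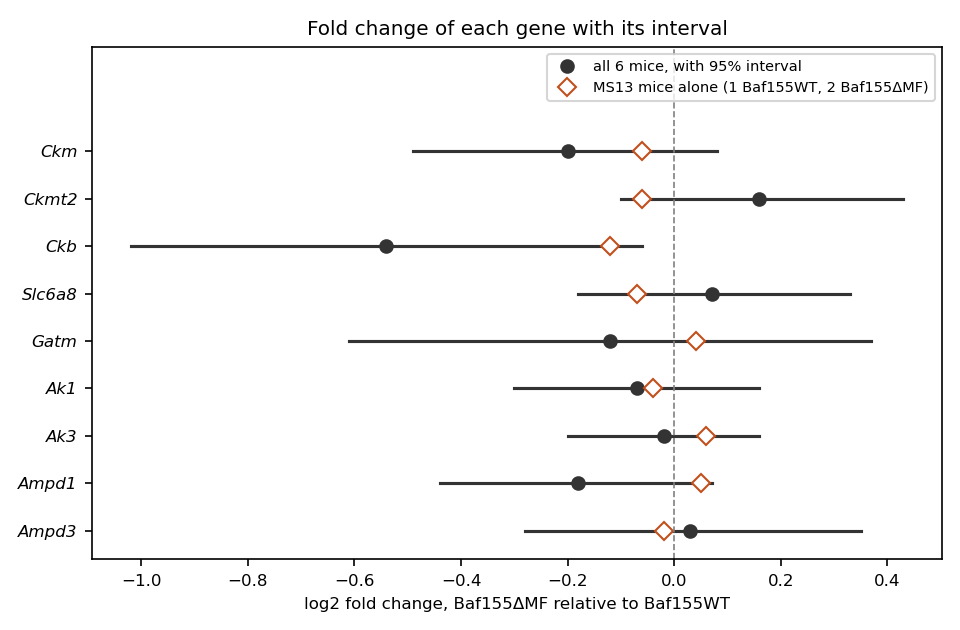
Log2 fold change of each gene in Baf155ΔMF relative to Baf155WT muscle, with black points and lines for the estimate over all 6 mice and its 95% interval, and open orange diamonds for the ratio between the MS13 mice alone. The interval of *Ckb* is the one that leaves out 0 (-1.02 to -0.06), and all diamonds lie between -0.12 and 0.06.

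Ratios between genes within a mouse do not depend on the scaling of its library. Per 100 *Ckm* transcripts (by CPM per kilobase) there were 14.8, 9.41 and 11.3 *Ckmt2* transcripts in the Baf155WT mice and 15.2, 14.5 and 15.6 in the Baf155ΔMF mice. The MS15 mice were low, and the other 4 mice lay close together whatever their genotype. Per 10000 *Ckm* transcripts there were 6.20, 9.55 and 7.02 *Ckb* transcripts against 6.88, 5.01 and 6.56. Per 1000 *Ampd1* transcripts there were 6.24, 5.27 and 4.40 *Ampd3* transcripts against 6.39, 5.41 and 6.57, and per 100 *Ak1* transcripts there were 4.49, 4.63 and 4.09 *Ak3* transcripts against 4.67, 4.98 and 4.04. The genotypes overlapped in each of these 4 ratios. Without MS13-3 the log2 difference between genotypes went from 0.37 to 0.55 for *Ckmt2* per *Ckm* and from 0.22 to 0.34 for *Ampd3* per *Ampd1*. The summed counts of the 3 creatine kinase genes were 2.17, 2.70 and 2.70% of all counts in the Baf155WT mice and 2.01, 2.12 and 2.27% in the Baf155ΔMF mice, and MS13-3 again fell between Baf155ΔMF mice. Unlike the 4 ratios, this share depends on the other counts of the library and was taken without TMM scaling.

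Across the 6 libraries, the log2 CPM of *Ckm* and *Ckb* went up and down together (Pearson's r = 0.83) and *Ckmt2* went against both (r = -0.77 and -0.84). *Ak3* and *Ampd1* had r = 0.90, and *Ckmt2* and *Ampd1* had r = -0.87. These are descriptions over 6 libraries of 2 genotypes and 3 prefixes that share their scaling. Of all genes tested, those most like *Ckm* over these libraries were *Med8*, *Tlr8* and *Ssr2* (r = 0.997, 0.995 and 0.993), and those most like *Ckb* were *St3gal3*, *Zfp36l1* and *Serpinb8* (r = 0.994, 0.991 and 0.990).

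Markers of other cell types were set beside *Ckb*, since this kinase is not particular to myofibers. The 7 leukocyte markers summed to 160, 436 and 342 CPM in the Baf155WT mice and 148, 156 and 224 CPM in the Baf155ΔMF mice. The 6 adipocyte markers summed to 40.2, 82.9 and 70.9 CPM against 44.7, 34.3 and 49.8 CPM. Both sums were highest in MS15-2 and next in MS15-3, the order that *Ckb* had too, and all 7 leukocyte markers had a lower mean in Baf155ΔMF muscle (unadjusted p under 0.05 in 7 of 7, beside 7.95% of all genes tested, and adjusted p under 0.05 in 0 of 7 from edgeR). Between the MS13 mice alone the log2 ratios of these 7 markers lay between -0.22 and 0.19. All 6 adipocyte markers had a lower mean too. An unadjusted p under 0.05 from edgeR was found in 2 of them, beside 7.95% of all genes tested, and an adjusted p under 0.05 in 0. Between the MS13 mice alone their log2 ratios lay between -0.49 and 0.22. Among them *Lep* did not have the order of *Ckb*, with 5.05, 3.06 and 7.41 CPM against 4.16, 3.01 and 4.56 CPM. Schwann cell and nerve markers (7 of 10 listed genes tested) summed to 89.7, 77.5 and 88.4 CPM against 78.2, 88.7 and 75.4 CPM, and did not have that order. The 8 smooth muscle markers summed to 866, 692 and 733 CPM against 898, 950 and 840 CPM, with the MS15 mice lowest. *Rgs5* was the largest part of these sums, with 626, 460 and 509 CPM against 676, 741 and 574 CPM. The single markers did not all have the order of the sum, and *Mustn1* was highest in MS15-2 (67.1 CPM). The 7 fibroblast markers summed to between 1969 and 2355 CPM and between 1737 and 2720 CPM, and they did not move as one. *Dcn* (744, 1161 and 1011 CPM against 654, 678 and 836 CPM), *Lum* and *Pdgfra* were highest in MS15-2 and next in MS15-3, as *Ckb* was, while the collagen genes *Col1a1*, *Col1a2* and *Col3a1* were highest in MS14-2. Endothelial markers (7 genes) summed to 258 to 328 CPM against 331 to 361 CPM, and all 7 had a higher mean in Baf155ΔMF muscle. Of these, 3 had an unadjusted p under 0.05 from edgeR, beside 7.95% of all genes tested, and 0 an adjusted p under 0.05. The genotypes did not overlap in 3, all higher, beside 5.20% of all genes. Between the MS13 mice alone their log2 ratios lay between -0.12 and 0.31. Satellite cell markers (3 of 4 listed genes tested) summed to 8.74 to 11.7 CPM against 10.9 to 12.1 CPM. *Ckm* and *Ampd1* were highest in the MS15 mice too, and the part of these cell types in the values of the 3 genes was not tested.

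**Figure D4:**
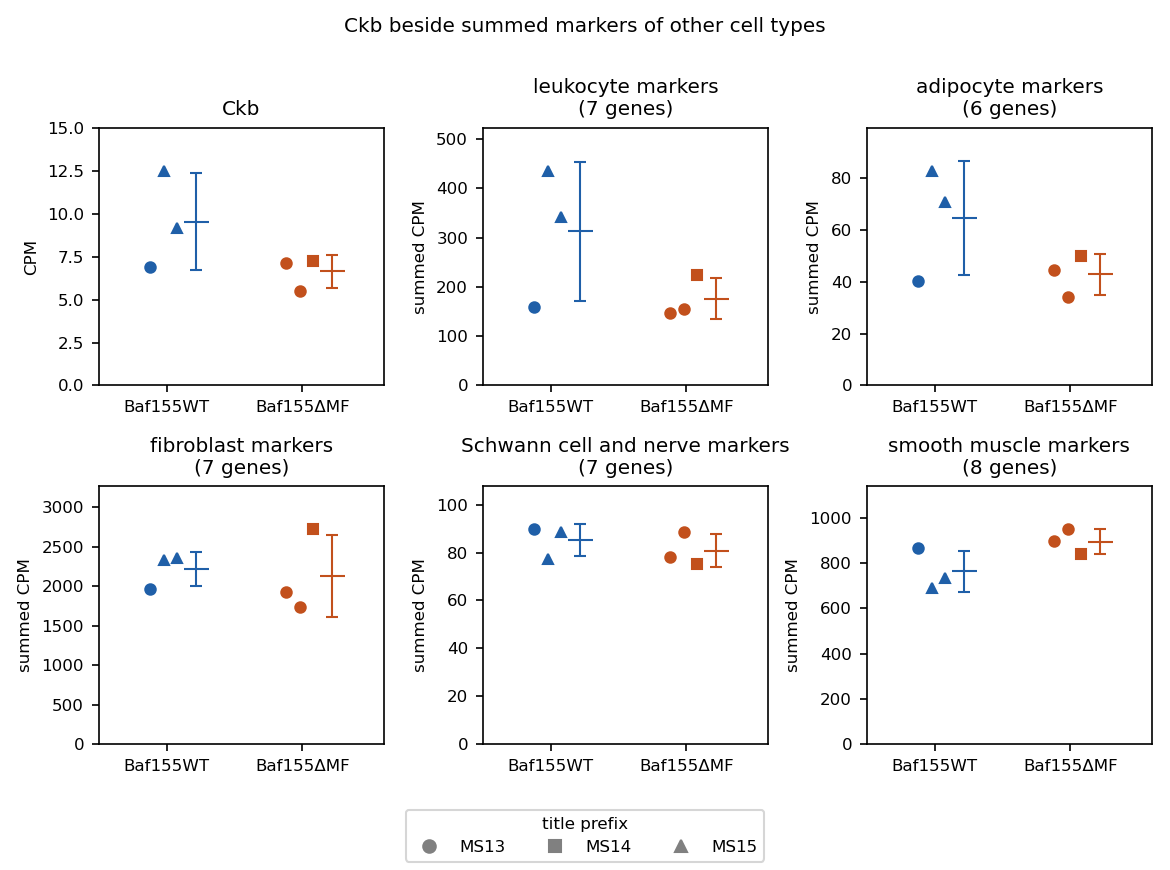
*Ckb* in TMM-normalized CPM and the summed CPM of markers of 5 other cell types in each mouse, with axes that start at 0, marker shapes for the title prefix and bars for the mean ± SD of 3 mice. The MS15 Baf155WT mice (blue triangles) are highest in *Ckb*, in leukocyte markers (436 and 342) and in adipocyte markers (82.9 and 70.9).

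Fiber type markers were read in the same way because creatine kinase and AMP deaminase levels differ between fast and slow fibers. Of 10 fast fiber markers, 1 had an unadjusted p under 0.05, beside 7.95% of all genes tested, and 0 had an adjusted p under 0.05 from edgeR. It was *Myh1*, the myosin heavy chain of type IIx fibers, with 5731, 4034 and 4810 CPM in the Baf155WT mice and 7683, 6341 and 6466 CPM in the Baf155ΔMF mice. All Baf155ΔMF mice lay higher, as in 5.20% of all genes tested. The difference was 0.49 ± 0.15 on the log2 scale (edgeR unadjusted p = 0.00672, adjusted p = 0.601), while the median over the 10 markers was -0.11. Of 10 slow fiber markers, 1 had an unadjusted p under 0.05, beside the same 7.95%, and 0 an adjusted p under 0.05 from edgeR. It was *Myoz2*, which was higher in Baf155ΔMF muscle by 0.31 on the log2 scale. *Mybpc1* was the slow marker that was higher without overlap (0.24), beside the same 5.20% of all genes tested. The median over the slow markers was 0.00, and they summed to 2173 to 2732 CPM in Baf155WT and 2555 to 2872 CPM in Baf155ΔMF muscle. *Mybpc1* was the largest part of these sums, with 1471, 1157 and 1315 CPM against 1644, 1534 and 1475 CPM.

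The wider network of creatine, adenylate and purine nucleotide handling was covered by 40 other genes, of which 34 had enough counts to be tested. None had an adjusted p under 0.05 in edgeR, DESeq2 or limma-voom. At an unadjusted p under 0.05 there were 2, of which *Nme4* was lower and *Slc16a12* higher in Baf155ΔMF muscle, against 7.95% of all genes tested. The median log2 fold change was -0.09, beside 0.00 over all genes, and 26 of the 34 had a lower mean in Baf155ΔMF muscle. The genotypes did not overlap in 4 genes that were lower (*Adsl*, *Aprt*, *Hprt* and *Nme4*) and in 1 that was higher (*Slc16a12*), beside 5.57% and 5.20% of all genes.

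*Nme4*, a nucleoside diphosphate kinase of mitochondria that passes phosphate between ATP and other nucleotides, was the one gene of these lists with an unadjusted p under 0.01, which 1.54% of all genes had. It had 1.75, 3.14 and 2.50 CPM in the Baf155WT mice and 0.641, 1.25 and 0.351 CPM in the Baf155ΔMF mice, so all Baf155ΔMF mice were lower, at levels near the floor in MS14-2. The difference was -1.70 ± 0.41 on the log2 scale (edgeR adjusted p = 0.556), and it was -0.89 between the MS13 mice alone. Without MS13-3 its edgeR adjusted p was 0.00937, in the fit in which 7.77% of the 12288 genes tested were called. All Baf155WT mice left in that fit carry MS15. *Slc16a12*, a carrier known to move creatine, was named after its values were seen. It had 1.55, 0.918 and 1.07 CPM against 1.92, 1.66 and 2.22 CPM, which is 0.72 ± 0.31 on the log2 scale (edgeR adjusted p = 0.611), and 0.20 between the MS13 mice alone.

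*Gamt*, which completes creatine synthesis, had 9.91, 10.6 and 13.6 CPM against 10.3, 8.51 and 10.8 CPM (log2 fold change -0.21). *Ckmt1*, the ubiquitous mitochondrial creatine kinase, was read at no more than 1 count in any library, so *Ckmt2* was the mitochondrial form that these depths could follow. Of the other adenylate kinases, *Ak6* differed by -0.13 on the log2 scale (edgeR adjusted p = 0.761) and *Ak4* by -0.28 (edgeR adjusted p = 0.794). *Ak5*, *Ak7* and *Ak8* had at most 5 counts in a library. In the purine nucleotide cycle, *Adssl1*, the muscle adenylosuccinate synthase that returns IMP towards AMP, had 404, 343 and 370 CPM against 397, 366 and 370 CPM. *Adsl*, the lyase of the next step, had 143, 141 and 142 CPM against 140, 137 and 140 CPM, so its genotypes did not overlap at a log2 fold change of -0.03 (adjusted p = 0.919 from edgeR).

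Among 10 tested genes of AMP and adenosine turnover the log2 fold changes ran from -0.33 to 0.22, and 9 were negative. The most abundant by CPM were *Adk*, *Xdh* and *Nt5c3*, with log2 fold changes of -0.08, -0.27 and -0.03. *Xdh*, which makes uric acid, had an edgeR adjusted p of 0.622, and of 0.0317 without MS13-3, where 7.77% of all genes tested were called. The Baf155WT mice left in that fit all carry MS15, and the log2 ratio of *Xdh* between the MS13 mice alone was 0.04. Mitochondrial nucleotide carriers and porins, which pass ATP, ADP and phosphate across the membranes, ran from -0.39 to 0.06 over 9 genes. *Slc25a4*, the ATP/ADP carrier of muscle, had 3511, 3416 and 3794 CPM against 3373, 3585 and 3638 CPM (log2 fold change -0.02), and *Vdac1*, a porin, had a log2 fold change of 0.06. *Slc25a25*, a carrier of ATP-Mg and phosphate, had the lowest fold change of these and a wide spread, with 117, 35.1 and 141 CPM against 30.3, 88.8 and 104 CPM.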

How the data were processed

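Libraries were made from RNA of whole hind limb muscles of 3 mice per genotype. The deposited table holds expected counts of reads per gene, not normalized by the authors. The submitters' processing notes name CASAVA 1.8.2, cutadapt 1.10, Bowtie2 2.2.7, TopHat2 2.1.1, RSEM 1.2.30, limma and the build mm10 (GRCm38), without roles. Some estimates were fractional, as where reads are shared between genes, and all were rounded. The library kit was stranded (TruSeq Stranded Total RNA), and the annotation and the strand setting of the counting are not given in the sources used here.

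Genotypes, taken from the labels, were compared in R 4.3.3 with edgeR 4.0.16 (filterByExpr with minimum counts of 10 and 15 in total, TMM, quasi-likelihood F test), with Benjamini-Hochberg adjustment over the 12116 genes that passed. Standard errors are the log2 fold change over the square root of F. Confidence intervals use the degrees of freedom of that test. Its p-values set the genotype difference against the spread between mice of a genotype, with dispersion estimates that draw on all genes. Without the covariate, that spread includes any difference between title prefixes. Log2 CPM for correlations had a prior count of 2. DESeq2 1.42.0 and limma 3.58.1 (voom) were alternatives. The pipeline was tested on simulated data. No pair of libraries agreed within sampling noise (chi-square per degree of freedom at least 3.81).

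The genes and lists were chosen with earlier results of these data known. The text names the 9 genes, *Smarcc1*, pathway list genes at an unadjusted p under 0.01, up to 3 genes by level in lists without one, and the 3 genes most correlated with *Ckm* and with the gene of smallest p. Other genes (*Slc16a12*, *Xdh*, *Slc25a25*, *Gamt*, *Ckmt1*, *Vdac1*, the single markers and those named for not overlapping) were chosen after their values were seen. Of these, *Slc16a12*, *Xdh*, *Gamt* and *Vdac1* also fall within the rule by level. Positions and lengths are from GENCODE M21 on GRCm38, and promoters are from RefSeq on GRCm38.p6. A listed gene is not reported here.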

Additional observations from a re-analysis of the deposited data

How the results depend on the processing

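With an adjusted limit of 0.05, edgeR called 3 of all genes tested, DESeq2 23, limma-voom 5, a filter of at least 1 count over the 6 libraries 17 and a covariate for the title prefix 16. Leaving out 1 library gave 0 to 955 calls, with the most without MS13-3, 0 without MS15-2 (451 at unadjusted p under 0.05), 0 without MS13-2 (568 at that limit), 1 without MS13-1 and 7 without MS15-3. The count among the 9 genes was 0 in each of these except the fit without MS13-3, and ran from 0 to 1 across the fits without 1 library. The count among the wider lists ran from 0 to 2 there and was 0 under the other alternatives. The 2 came without MS13-3, beside 7.77% of all genes tested in that fit. At an unadjusted p under 0.05 the 9 genes gave 1, but 0 with the prefix as a covariate and 0 to 4 without 1 library. The adjusted p of *Ckb* ran from 0.0255 to 0.996 over 15 alternatives, its unadjusted p was under 0.05 in 12 of them, and its log2 fold change stayed negative, from -0.72 to -0.12. *Ckm* (-0.28 to -0.06) and *Ak1* (-0.13 to -0.01) also kept their direction.

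The other genes changed sign under at least 1 alternative. With the prefix as a covariate the log2 fold changes were -0.06 for *Ckmt2*, -0.07 for *Slc6a8*, 0.04 for *Gatm*, 0.06 for *Ak3*, 0.05 for *Ampd1* and -0.03 for *Ampd3*. The MS13 mice alone gave -0.06, -0.07, 0.04, 0.06, 0.05 and -0.02 in the same order, a likeness that the design fixes since both settings rest on those 3 mice, and scaling by library size only gave -0.03 for *Ampd3*. Without 1 library they ran from -0.05 to 0.16 for *Slc6a8*, -0.25 to 0.05 for *Gatm* (0.02 without MS15-2), -0.04 to 0.01 for *Ak3* and -0.07 to 0.10 for *Ampd3*. The log2 difference between genotypes in *Ckmt2* per *Ckm* was 0.37 and became 0.00 with the MS13 mice alone, that of *Ampd3* per *Ampd1* went from 0.22 to -0.09, and that of the creatine kinase share of counts from -0.24 to -0.07. Without 1 library these ran from 0.22 (without MS15-2) to 0.55 (without MS13-3), from 0.09 (without MS15-3) to 0.34 (without MS13-3) and from -0.34 (without MS13-3) to -0.18 (without MS15-3). The causes were not tested. The depth limits *Ckb*, *Gatm* and *Ampd3*, which had 28 to 164 counts per library. No paired analysis was possible because the labels do not tie mice together. The genotypes share 1 of the numbers that follow the prefix in the titles, and 2 of the Baf155ΔMF mice carry it.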
